A study of Mus musculus with 6 samples.

Results

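Complement genes that macrophages make or sense were compared between H10 and C8 cells, lines derived from RAW264.7 mouse macrophages, after 2 days with sRANKL at 60 ng/mL. The genes were chosen by name and by function, with earlier results of these data known: C1qa, C1qb, C1qc, C3, C4b, C3ar1, C5ar1, Cfb and Cfp. Of these 9 genes, 8 had an array feature annotated to them alone, out of 19930 genes with such a feature, and each of the 8 had a single one. The probe annotation used here named no feature for C3, so C3 was not analysed here. H10 is the line that formed multinucleated osteoclasts and C8 the line that did not fuse; each was measured on 3 arrays. Both lines carry a retroviral Lifeact-mEGFP construct with puromycin resistance, and each is 1 clone, so the difference in fusion and any other difference between the clones cannot be told apart. It is not stated that the 3 arrays of each line are independent cultures, and p-values cover only the spread among these arrays, which may be technical. All values are log2 expression values, normalized by the authors with RMA, a method that corrects background, aligns the arrays and combines the probes of a feature. Log2 fold changes are H10 minus C8.

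Complement is a cascade of plasma proteins that marks and destroys microbes and debris. The classical pathway starts when C1q binds its target, the lectin pathway when collectins or ficolins bind sugars, and the alternative pathway amplifies the deposit of C3b on surfaces. Cleavage of C3 and of C5 releases the anaphylatoxins C3a and C5a, which act on receptors of myeloid cells. Macrophages make C1q, properdin and other components locally and carry receptors for the fragments, and C3a and C5a receptors have been studied in osteoclast precursors.

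Array medians were 7.69 to 7.72 in H10 cells and 7.65 to 7.74 in C8 cells. C8 replicate 1 was above the mean of the other C8 arrays by 0.895 for C3ar1, 0.73 for C5ar1 and 0.495 for Cfp, on the log2 scale, whereas over all features the SD of that difference was 0.263. Each result for these genes is therefore also given without that array. The labelled cell type was checked with markers: Csf1r, the M-CSF receptor, was at 13.22 to 13.26 in H10 cells and 13.30 to 13.36 in C8 cells, and Cd68 and Lyz2 also did not pass the test. These 3 were above the array medians on all 6 arrays, whereas Mertk, Cd163, Mrc1 and Aif1 of the same list were below them on all 6. Adgre1, which encodes a surface glycoprotein typical of mature macrophages, was at 9.40 to 9.73 in H10 cells and 7.39 to 7.71 in C8 cells (log2 fold change 2.02, limma adjusted p = 0.00114) and was the only 1 of 14 measured macrophage markers past the test. Of 11 osteoclast markers, 6 were higher in H10 cells, among them Ctsk with 3.57. Mmp9, at -0.34, Calcr, Itgb3, Nfatc1 and Tnfrsf11a did not pass. Of 32 measured markers of lymphocytes, neutrophils, stromal, endothelial, epithelial and liver cells, 0 passed, with log2 fold changes of -0.26 to 0.11. By the same test 1.85% of all genes were higher and 1.04% lower in H10 cells. The log2 values of these markers were 4.53 to 8.75. Col1a1, Col1a2, Cd3e and Apoa1 were above the array medians on all 6 arrays, and the rest on none. A comparison of the lines cannot show that a cell type was absent from both. In such bulk RNA, fewer cells of a kind and less RNA per cell cannot be told apart.

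Of the measured members, the gene of the C3a receptor was the only one past the test. Its call was lost in most fits with 1 array left out. C3ar1 was 3.56-fold higher in H10 cells (95% confidence interval 2.295 to 5.53), whereas C5ar1, the C5a receptor, was lower in every H10 array but did not pass the test. The C1q chains, C4b, factor B and properdin differed by 0.26 or less on the log2 scale and did not pass it either. Of the 8 measured members, 1 was higher in H10 cells, 0 were lower and 7 did not pass at an adjusted p under 0.05 from limma over all 35545 features. Over all genes, 1.85% were higher and 1.04% lower by the same rule. In 2 members all H10 arrays lay above all C8 arrays, as in 7.74% of all genes, and in 2 members all lay below, as in 12.7% of all genes. The median log2 fold change of the members was -0.095, and that of all genes -0.027. The plot of each array's values shows the single wide gap at C3ar1.

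**Figure D1:**
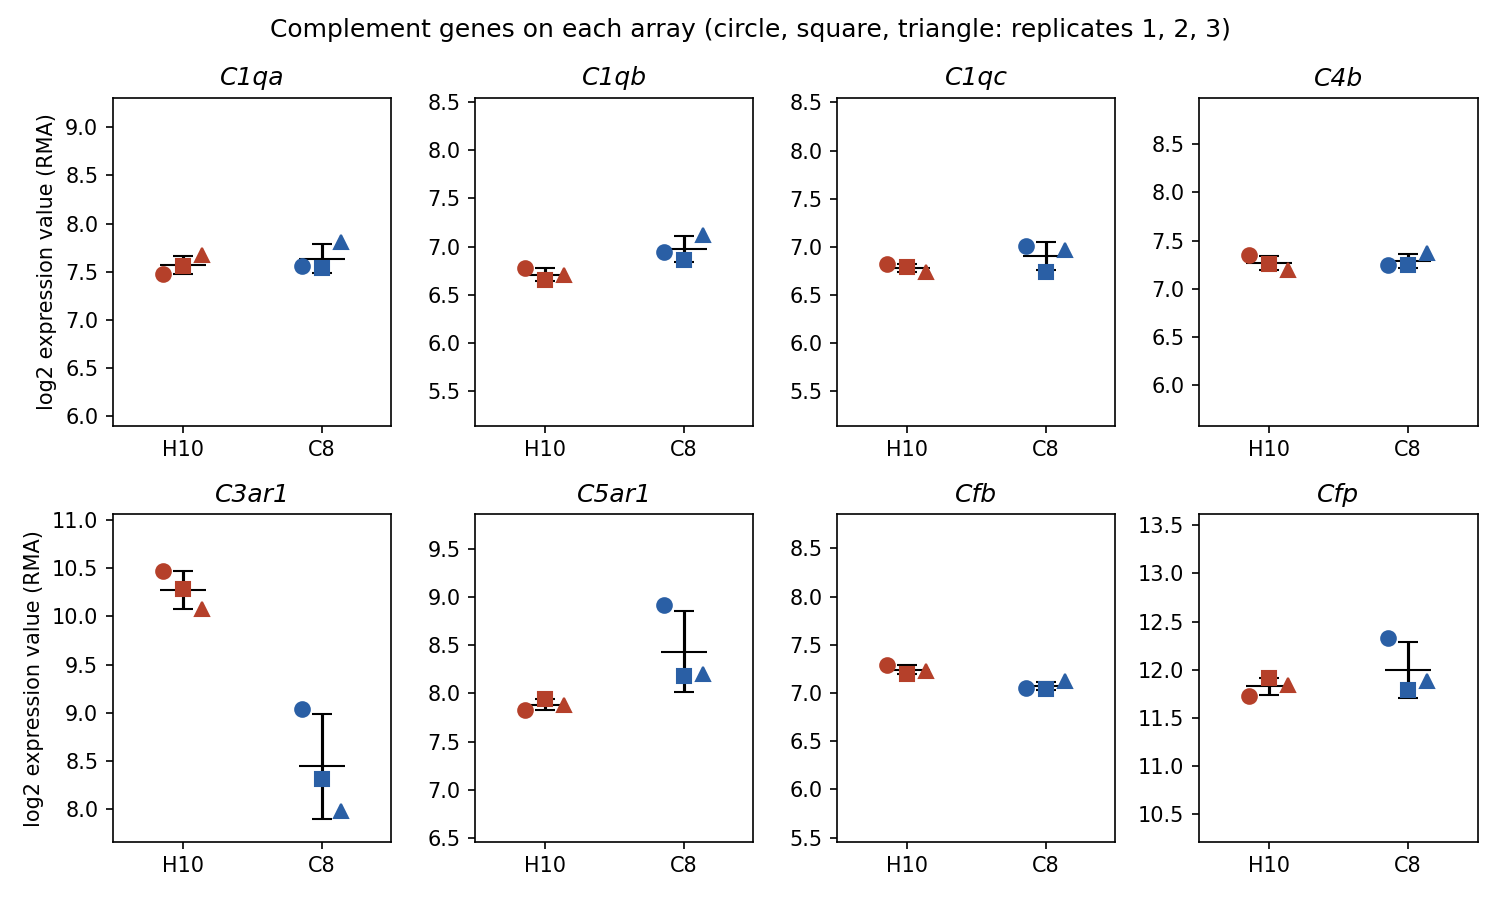
Log2 expression values (RMA) of the 8 measured complement genes on each array, with H10 on the left and C8 on the right of each panel; circles, squares and triangles are replicates 1, 2 and 3, long lines are means and bars the SD of 3 arrays. The panels have the same height in log2 units but different starting points. The lowest H10 value of C3ar1 is 1.04 above the highest C8 value, and C8 replicate 1 stands above the other C8 arrays for C3ar1, C5ar1 and Cfp.

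C3ar1 encodes a G protein-coupled receptor for C3a that is found on macrophages and other myeloid cells. Its log2 values were 10.47, 10.28 and 10.08 in H10 replicates 1, 2 and 3, against 9.04, 8.31 and 7.98 in C8 replicates 1, 2 and 3. All H10 arrays lay above all C8 arrays, and the C8 arrays were more spread than the H10 arrays. The means were 10.28 ± 0.195 in H10 cells and 8.44 ± 0.54 in C8 cells (SD, n = 3 each). The log2 fold change was 1.83 (standard error 0.265), with a 95% confidence interval of 1.20 to 2.47 and a limma adjusted p of 0.0235. Among the 369 genes that were higher in H10 cells, C3ar1 ranked 63 by log2 fold change.

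C3ar1 kept its direction with any array left out, whereas its call did not hold. With C8 replicate 1 left out, the log2 fold change was 2.13 (limma adjusted p = 0.00788). With any of the other 5 arrays left out in turn, it was 1.60 to 1.93, and the adjusted p was 0.0638 to 0.1, past the threshold in none of these 5 fits. Leaving out any 1 of the 6 arrays also lowered the number of all genes higher in H10 cells, which was then 152 to 346.

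C5ar1 encodes the receptor through which C5a attracts and activates phagocytes. Its log2 values were 7.83, 7.94 and 7.88 in H10 replicates 1, 2 and 3, against 8.92, 8.18 and 8.20 in C8 replicates 1, 2 and 3. Every H10 array lay below every C8 array, by 0.24 at the nearest, and C8 replicate 1 stood apart above the rest. The means were 7.88 ± 0.06 in H10 cells and 8.43 ± 0.42 in C8 cells (SD, n = 3 each). The log2 fold change was -0.55 (standard error 0.20, 95% confidence interval -1.03 to -0.07), and the limma adjusted p of 0.333 missed the threshold. Without C8 replicate 1 it was -0.31, with a limma adjusted p of 0.103. The difference between the responses of the receptors was not tested. C5ar2, a second C5a receptor that does not couple to G proteins, also had its H10 arrays, at 7.25, 7.12 and 7.10, below its C8 arrays, at 7.29, 7.28 and 7.42. Its log2 fold change was -0.17 (limma adjusted p = 0.428), and all of its values were below the array medians.

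The stretches of 250 bases before the start sites of C3ar1 and C5ar1 are shown because these receptors had the largest positive and negative log2 fold changes of the members. They are RefSeq sequences of build GRCm38.p6, written 5′ to 3′ on the gene's strand, which is the minus strand for both. The C3ar1 stretch is chr6:122856158-122856407 and the C5ar1 stretch is chr7:16259339-16259588. Capitals mark motif matches.
C3ar1: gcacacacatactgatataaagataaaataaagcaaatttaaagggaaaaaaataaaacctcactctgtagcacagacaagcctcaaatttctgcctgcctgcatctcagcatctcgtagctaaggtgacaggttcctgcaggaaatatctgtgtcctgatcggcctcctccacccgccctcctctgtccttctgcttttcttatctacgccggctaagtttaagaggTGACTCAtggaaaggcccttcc
C5ar1: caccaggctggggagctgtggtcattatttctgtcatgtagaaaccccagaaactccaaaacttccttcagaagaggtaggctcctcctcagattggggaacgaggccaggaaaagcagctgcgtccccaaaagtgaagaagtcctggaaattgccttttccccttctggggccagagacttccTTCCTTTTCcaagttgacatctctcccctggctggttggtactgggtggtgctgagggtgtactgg
Both strands were searched for the AP-1 site TGANTCA, the PU.1 core GAGGAA, an interferon regulatory factor repeat GAAANNGAA and the STAT element TTCNNNGAA, of which no match overlapped another in these stretches. The C3ar1 stretch held 1 AP-1 match, TGACTCA, 22 to 16 bases before the start, and 6.75% of 32851 RefSeq promoter stretches of this length held one. The C5ar1 stretch held 1 match to the interferon regulatory factor repeat on the opposite strand, 66 to 58 bases before the start, as did 7.13% of the stretches. The PU.1 core was present in 23.3% of the stretches and the STAT element in 7.02%, and neither was present in these 2. Of the other members, the C1qb and C1qc stretches each held 1 PU.1 core match, and those of C3 and Cfp held none of the 4 motifs; C1qa, C4b and Cfb were not matched in the promoter table.

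The neighbours of the receptor genes were then read in RefSeq gene order, a choice made after the members' values were seen. On chromosome 6, the 3 genes with features on one side of C3ar1, which are Foxj2, Slc2a3 and Nanog, had log2 fold changes of -0.08, -0.12 and 0.11. Necap1 and Clec4a1 on the other side had 0.09 and 0.00. The next gene, Clec4a3, a C-type lectin receptor of myeloid cells, was higher in H10 cells by 0.73 (limma adjusted p = 0.0445). Of the 6 neighbours of C3ar1, Clec4a3 was thus the only one past the test, where 1.85% of all genes were higher and 1.04% lower. On chromosome 7, 0 of the 6 neighbours of C5ar1, among them C5ar2, passed. The largest difference was that of Dhx34, an RNA helicase gene, with -0.60 (limma adjusted p = 0.0812).

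Genes with the array pattern most like that of each receptor were found by the root mean square difference of log2 values, each gene centred on its own mean over the 6 arrays. The nearest genes to C3ar1 were Spink5, a serine protease inhibitor gene, at 0.13, Acod1, which encodes the enzyme that makes itaconate in activated macrophages, at 0.18, and Fyb, an adaptor gene of immune cells, at 0.19. Their log2 fold changes were 1.62, 1.59 and 1.68, and in each of them C8 replicate 1 was the highest C8 array, as in C3ar1. The nearest genes to C5ar1 were Ltb, which encodes lymphotoxin beta, at 0.03, and Slc1a4, an amino acid transporter gene, and Pcdhb22, a protocadherin gene, both at 0.09. Their log2 fold changes were -0.57, -0.46 and -0.52, and in each of these 3 genes C8 replicate 1 was also the highest of the 6 arrays. All these genes were chosen for their likeness to a receptor over the 6 arrays. The shared directions and the high C8 replicate 1 therefore follow from the choice. The part of that array in these patterns was not tested.

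**Figure D2:**
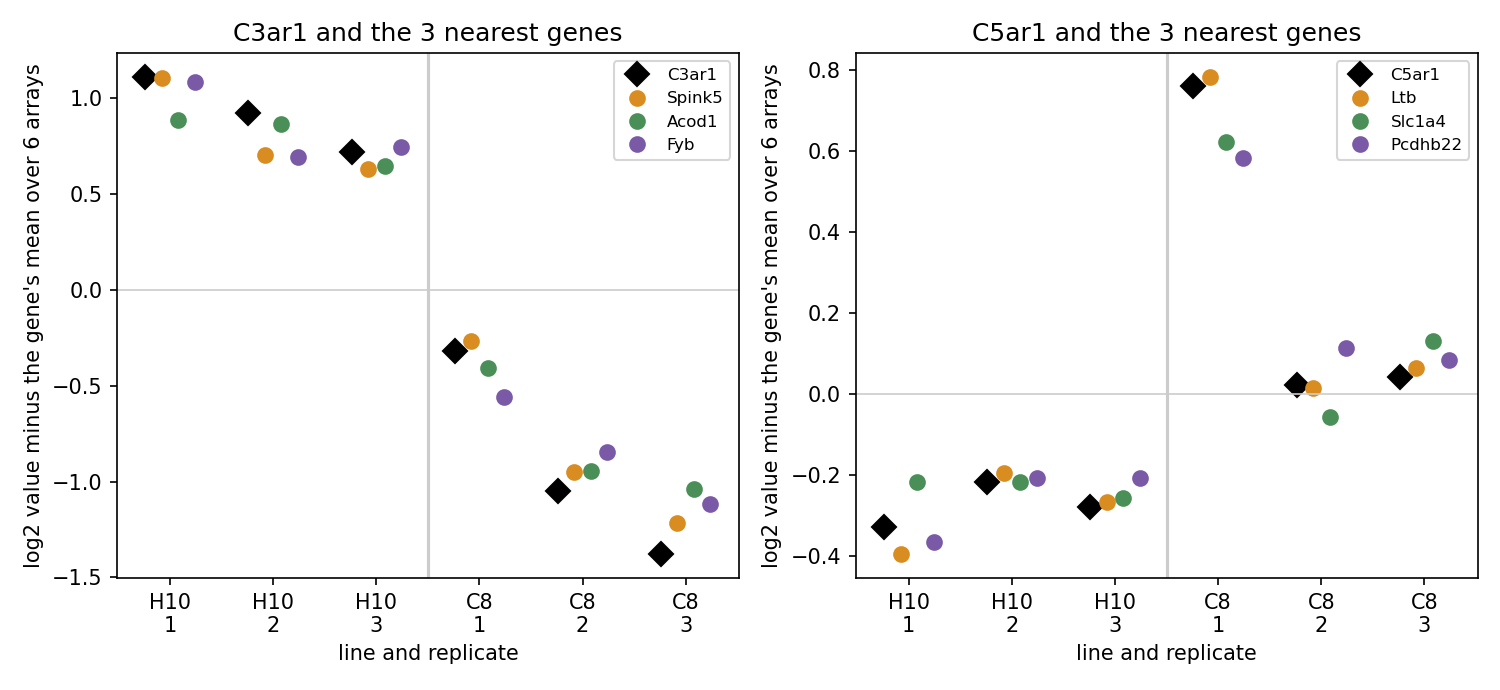
Log2 value minus the gene's mean over 6 arrays, on each H10 array (left of the grey line) and each C8 array (right of it), for C3ar1 (left panel) and C5ar1 (right panel) as black diamonds and for the 3 genes with the smallest root mean square difference as coloured circles. C8 replicate 1 is the highest C8 array for all 8 genes, which follows from the choice of genes by likeness.

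C1q, the recognition molecule of the classical pathway, is built from the A, B and C chains that C1qa, C1qb and C1qc encode side by side on chromosome 4. None of the chains passed the test. C1qb had log2 values of 6.78, 6.65 and 6.70 in H10 replicates 1, 2 and 3, against 6.94, 6.86 and 7.12 in C8 replicates 1, 2 and 3. The H10 arrays lay below the C8 arrays without overlap, by 0.08 at the nearest. The means of C1qb were 6.71 ± 0.07 in H10 cells and 6.97 ± 0.13 in C8 cells (SD, n = 3 each). C1qb differed by -0.26 (standard error 0.09, 95% confidence interval -0.47 to -0.06, limma adjusted p = 0.268). C1qa had 7.48, 7.56 and 7.67 in H10 cells, against 7.56, 7.54 and 7.81 in C8 cells. C1qc had 6.82, 6.79 and 6.74 in H10 cells, against 7.01, 6.74 and 6.97 in C8 cells. For both genes the lines overlapped. C1qa averaged 7.57 ± 0.10 in H10 cells and 7.64 ± 0.15 in C8 cells, and C1qc averaged 6.78 ± 0.04 in H10 cells and 6.91 ± 0.15 in C8 cells (SD, n = 3 each). C1qa differed by -0.07 (95% confidence interval -0.30 to 0.16, limma adjusted p = 0.894), and that of C1qc was -0.12 (95% confidence interval -0.33 to 0.08, limma adjusted p = 0.711). C1qb and C1qc were below the median of their own array on all 6 arrays and C1qa on all but 1. No background level was measured, and the size of differences at such levels is uncertain.

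C4b encodes C4, the thioester protein that is deposited on targets after C1q or a lectin has bound. It had log2 values of 7.35, 7.26 and 7.20 in H10 replicates 1, 2 and 3, against 7.25, 7.25 and 7.37 in C8 replicates 1, 2 and 3. The lines overlapped, and all 6 values were below the array medians. C4b averaged 7.27 ± 0.08 in H10 cells and 7.29 ± 0.07 in C8 cells (SD, n = 3 each). The log2 fold change was -0.02 (95% confidence interval -0.19 to 0.15, limma adjusted p = 0.964). The near-identical gene C4a, whose transcripts the probes may also bind, had -0.01, and C2, the protease partner of C4, had 0.01.

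In the alternative pathway, Cfb encodes factor B, the protease of the C3 convertase, and Cfp encodes properdin, which stabilizes that convertase. Cfb had log2 values of 7.29, 7.20 and 7.23 in H10 replicates 1, 2 and 3, against 7.05, 7.04 and 7.12 in C8 replicates 1, 2 and 3. The H10 arrays lay above the C8 arrays by 0.08 at the nearest, and all 6 values were below the array medians. Cfb averaged 7.24 ± 0.05 in H10 cells and 7.07 ± 0.04 in C8 cells (SD, n = 3 each). Cfb differed by 0.17 (standard error 0.06, 95% confidence interval 0.03 to 0.31), with a limma adjusted p of 0.32. Cfp had 11.73, 11.91 and 11.84 in H10 cells, against 12.33, 11.79 and 11.88 in C8 cells. The lines overlapped, with C8 replicate 1 above the other 5 arrays, and all 6 values of Cfp were above the array medians. Cfp averaged 11.83 ± 0.09 in H10 cells and 12.00 ± 0.29 in C8 cells (SD, n = 3 each). Cfp differed by -0.17 (95% confidence interval -0.52 to 0.18, limma adjusted p = 0.775), and without C8 replicate 1 it was -0.01.

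**Figure D3:**
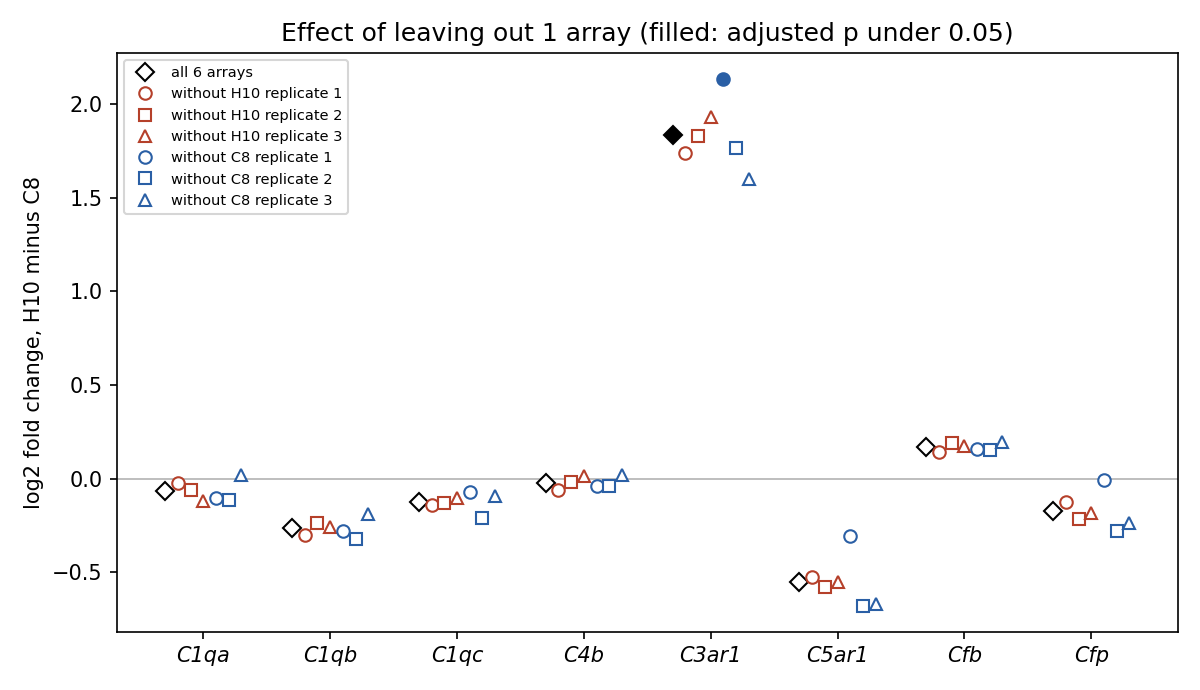
Log2 fold change (H10 minus C8) of each measured complement gene with all 6 arrays (diamonds) and with 1 array left out (red, an H10 array; blue, a C8 array; circle, square and triangle for replicates 1, 2 and 3). Filled symbols have a limma adjusted p under 0.05, which C3ar1 has with all arrays and without C8 replicate 1 but in none of the other 5 fits.

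The rest of the complement system was read from a list of 53 other genes, of which 48 had a feature of their own. Of these 48, 1 was higher in H10 cells, 0 were lower and 47 did not pass, where 1.85% of all genes were higher and 1.04% lower. In 6 of them all H10 arrays lay above all C8 arrays, against 7.74% of all genes, and in 4 all lay below, against 12.7% of all genes. The median log2 fold change was -0.022, and 41 of the 48 genes lay within 0.2 of 0. By the role each gene was listed under, 1 of 15 genes of initiation was higher, and 0 of 10 receptors, 0 of 16 regulators and 0 of 7 genes of the terminal pathway passed. The 1 gene was Colec12, which was listed under initiation though it encodes a membrane scavenger receptor. On all 6 arrays 36 of the 48 genes were below the array medians, among them the 7 genes of the terminal pathway.

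The gene past the test was Colec12, which encodes a membrane collectin that acts as a scavenger receptor. Its log2 values were 12.35, 12.32 and 12.33 in H10 replicates 1, 2 and 3, against 11.36, 11.62 and 11.54 in C8 replicates 1, 2 and 3. The lines did not overlap and the H10 arrays were nearly equal. The log2 fold change was 0.83 (standard error 0.08, 95% confidence interval 0.63 to 1.02), with a limma adjusted p of 0.00588, and with any 1 array left out it was 0.75 to 0.88 with an adjusted p of 0.00956 to 0.0421.

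Among the genes listed as receptors and as regulators, 0 passed, and the log2 fold changes ran in both directions. The most negative of the 48 was that of Cd46, a membrane cofactor for the cleavage of C3b, at -0.33 (limma adjusted p = 0.388). Its log2 values were 6.72, 6.52 and 6.62 in H10 cells, against 7.16, 7.02 and 6.68 in C8 cells, and the lines overlapped. Itgax, Cr2 and Vsig4, which encode receptors for C3 fragments, had -0.03, -0.03 and 0.03, and Cd55, which encodes an inhibitor of the C3 convertases, had -0.03. Cd46 and these 4 genes were below the array medians on all 6 arrays, where the size of differences is uncertain. The largest positive ones in these groups were those of Itgam and Cd59a. Itgam, the alpha chain of complement receptor CR3, had log2 values of 9.53, 9.68 and 9.55 in H10 cells, against 9.36, 8.96 and 8.92 in C8 cells. Cd59a, which encodes an inhibitor of the membrane attack complex, had 11.16, 10.94 and 11.08 in H10 cells, against 10.86, 10.36 and 10.34 in C8 cells. For both genes every H10 array lay above every C8 array and C8 replicate 1 was the highest C8 array. The log2 fold changes were 0.51 for Itgam (limma adjusted p = 0.142) and 0.54 for Cd59a (limma adjusted p = 0.192). Without C8 replicate 1 they were 0.65 and 0.71, with adjusted p of 0.0215 and 0.0246, so that 3 of the 48 genes passed in that fit. Itgam was also one of the macrophage markers listed.

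The named genes also took in those with the highest mean log2 values among the genes that did not pass, which include Cd59a. That none of them passed follows from this choice, and Colec12, which passed, was left out of it. Calr, a chaperone that also serves as a surface receptor for C1q, had a log2 fold change of -0.01 (95% confidence interval -0.15 to 0.14). C1qbp, which encodes a C1q-binding protein found mainly in mitochondria, had 0.04. Itgb2, the beta chain that pairs with Itgam, had 0.11, and Cr1l, a membrane regulator of C3 deposition, had -0.04. Lrp1, an endocytic receptor that takes up complexes of C1q and of protease inhibitors, had 0.32 (limma adjusted p = 0.184), with every H10 array above every C8 array.

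**Figure D4:**
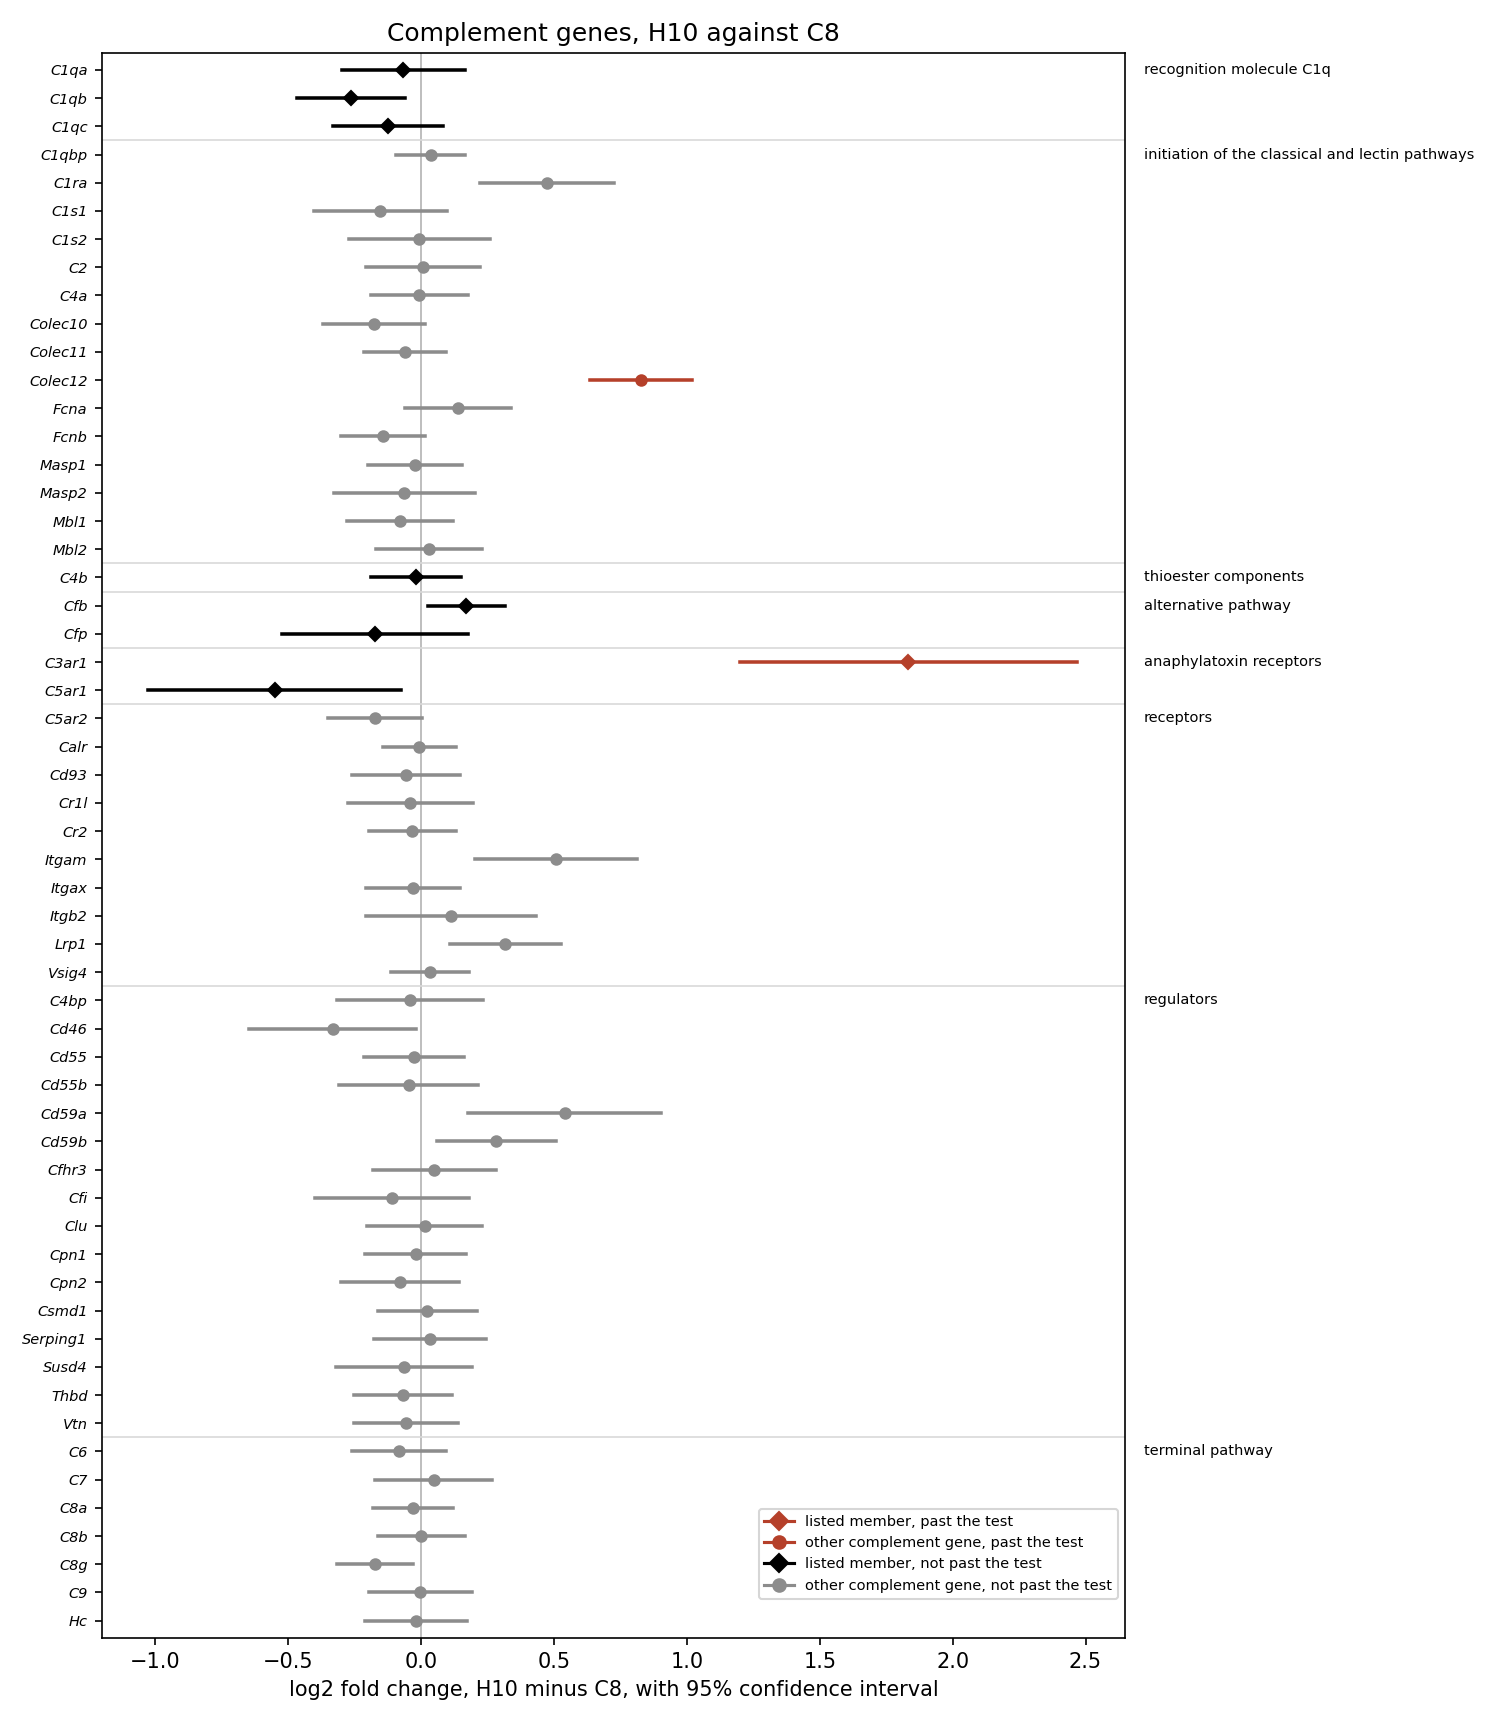
Log2 fold change (H10 minus C8, horizontal axis) with its 95% confidence interval for the 8 measured members (diamonds) and 48 other complement genes (circles), grouped by role from top to bottom. Red marks the genes with a limma adjusted p under 0.05, which are C3ar1 at 1.83 and Colec12 at 0.83.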

How the data were processed

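Total RNA of H10 and C8 cells was hybridised to Affymetrix mouse gene arrays. The deposited values are log2 values that the authors normalized with RMA; the submitters' notes list Affymetrix Expression Console, with the version and the annotation not given in the sources used here. They were used as deposited, without a filter. Of 35545 features, 21781 had 1 gene symbol, 1621 several and 12143 none. A gene was represented by its feature with the highest mean, and features shared by several genes were kept apart.

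The lines were compared in limma 3.58.1 (lmFit and eBayes, two-sided) in R 4.3.3, as the methods of the study name limma. The study also required a fold change of at least 5, which was not required for the calls here. P-values were adjusted by Benjamini-Hochberg over the 35545 features. Confidence intervals were not adjusted in this way, so some exclude no difference where the adjusted p does not pass. Degrees of freedom were 4 (residual) and 2.57 (prior). The limma comparison was tested on simulated data with 2-fold and 4-fold changes, in 100 features each. At an adjusted p under 0.05 it recovered 81% of the 2-fold and 95% of the 4-fold changes. Of its calls, 7.37% were false. The number of arrays limits the precision, and no measure of background was used. Mean log2 values across features served to pick features and genes to name; they depend on the probes and were not read as differences in expression between genes.

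The members and gene lists were chosen with earlier results of these data known. Genes named are all members, other complement genes past the test, the 6 brightest others, and for members with a range over 1 on the log2 scale the 3 genes of nearest pattern; Itgam, Itgax, Cr2, Vsig4, Cd46, Cd55, C4a, C2, C5ar2 and genes next to the receptors were added after their values were seen. Alternatives were leaving out each array, quantile normalization, a replicate block, a dim-feature filter, centring on array medians, averaging a gene's features, a trend with a robust prior, adjustment over 1 feature per gene, other thresholds and folds of linear means; leaving out replicate 1 of both lines was added after seeing the data. Promoter sequences are from RefSeq (GRCm38.p6), where 6 of 9 members were matched. Figures were drawn with matplotlib 3.10.9.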

Additional observations from a re-analysis of the deposited data

Results flagged for a closer look

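A feature annotated to both C1rb and C1ra, genes for the C1r protease that C1q activates, lay outside the counts because it is shared. Its log2 values were 7.01, 7.14 and 6.96 in H10 replicates 1, 2 and 3, against 6.63, 6.65 and 6.61 in C8 replicates 1, 2 and 3, without overlap and below the array medians on all 6 arrays. The log2 fold change was 0.41 (standard error 0.07, limma adjusted p = 0.0397). C1ra's own feature had 7.22, 7.22 and 7.13 in H10 cells, against 6.50, 6.77 and 6.88 in C8 cells, a log2 fold change of 0.47 (limma adjusted p = 0.099). The genes cannot be told apart on the shared feature. The 3 features shared by Rpl35 and Itgam had log2 fold changes of 0.00 to 0.01 and did not pass.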

How the results depend on the processing

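With 1 array left out, 0 to 1 members and 1 to 3 of the other complement genes passed as higher in H10 cells, with 0 as lower. At an FDR of 0.01, and at an FDR of 0.05 with a fold of 5, 0 members were higher, and at that fold 0 of the other genes were. The FDR of 0.05 with a fold of 5 is the rule in the methods of the study. Without the replicate 1 arrays of both lines, C3ar1 had 2.035 (limma adjusted p = 0.0206), 3 of the other genes were higher and Cfp turned to 0.04. Log2 fold changes that changed sign with 1 array left out spanned -0.12 to 0.02 for C1qa, -0.06 to 0.02 for C4b, -0.028 to 0.012 for Calr and -0.10 to 0.035 for Cr1l; the cause was not tested. Over 15 alternatives C3ar1 kept its direction, with 1.60 to 2.13. The folds of linear means among them gave no p-value. In the rest the limma adjusted p was 0.00719 to 0.1, and the call was lost in 5. The stricter thresholds above, which also lost it, are not among these 15. The filter on dim features (17939 kept) removed C1qa, C1qb, C1qc, C4b and Cfb, which have no value there.

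Deviations of same-numbered arrays correlated at 0.166, -0.004 and -0.121 for replicates 1, 2 and 3. Replicate 1 of each line correlated best with its own number, whereas replicates 2 and 3 did not. C3ar1 values fell in order of replicate number in both lines. The labels do not state whether same-numbered arrays were processed together. With the replicate block, 1 member (C3ar1, limma adjusted p = 0.0229) and 1 other gene (Colec12, adjusted p = 0.0372) were higher and no call changed. Over all genes, 369 were higher and 208 lower; the block gave 225 and 71, leaving out 1 array gave 152 to 346 and 40 to 126, and the dim filter gave 516 and 423. Of the 8 measured members, 4 were below the median of every array, and the size of differences in them is uncertain.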
